A study of Mus musculus with 30 samples.

Results

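The transcripts of 4 genes of cellular peroxide and thiol defence were followed in blood leukocytes of mice given cyclophosphamide: Gpx1 and Gpx4, which encode glutathione peroxidases, Mgst1, which encodes microsomal glutathione transferase, and Txn1, which encodes cytosolic thioredoxin. They were selected by gene symbol in the platform annotation and make up 4 of the 9616 symbols on the array. Each was measured by 1 probe with no other symbol, and all 4 were among the 6515 features with enough values to be tested. Peripheral blood leukocytes came from DBA/2 mice, an inbred strain, in 4 groups. The untreated group had 4 samples, and the groups taken 1, 2 and 5 days after cyclophosphamide, injected intraperitoneally at 83 mg/kg, had 4, 4 and 3 samples, independently harvested per the labels. Cyclophosphamide is an alkylating prodrug whose metabolites crosslink DNA and deplete dividing marrow cells. On 2-colour arrays, Cy5-labelled amplified RNA of the blood sample was set against Cy3-labelled RNA of pooled DBA/2 bone marrow cells. One label calls this pool untreated and another names the drug for it. For the mice, age, sex and whether a sample pools several animals were not given in the sources used here.

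Glutathione and thioredoxin carry the electrons with which cells reduce peroxides and oxidised proteins. Glutathione peroxidases spend glutathione: Gpx1 reduces hydrogen peroxide and small organic peroxides and is abundant in red cells and their precursors, while Gpx4 reduces lipid peroxides within membranes and is known for holding back ferroptosis, an iron-dependent form of cell death. Mgst1 is a membrane enzyme of the endoplasmic reticulum and outer mitochondrial membrane that couples glutathione to electrophiles and also reduces lipid peroxides. Txn1 reduces protein disulfides and supplies peroxiredoxins and ribonucleotide reductase with electrons, and is itself recharged by thioredoxin reductase. Glutathione conjugation is also a known route by which reactive metabolites of cyclophosphamide are cleared.

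The sequences upstream of the 4 genes are shown because the 4 genes moved in different directions and on different days. The 250 bases before each annotated start were read from RefSeq, build GRCm38.p6, where all 4 genes matched, with 8 windows in all (Gpx4 has 4 and Mgst1 has 2). Capitals mark matches to the antioxidant response element core TGACNNNGC, or to the GATA motif NGATAN with A or T at its start and A or G at its end, both searched on either strand and not overlapping here. The motifs, and the window printed where a gene has several, were chosen after values were seen.
Gpx1, chr9:108338830-108339079, plus strand: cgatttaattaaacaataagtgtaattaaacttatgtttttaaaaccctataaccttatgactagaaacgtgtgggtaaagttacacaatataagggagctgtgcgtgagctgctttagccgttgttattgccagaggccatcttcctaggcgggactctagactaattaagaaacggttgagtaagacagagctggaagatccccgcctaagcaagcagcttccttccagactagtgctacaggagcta
Gpx4, chr10:80053315-80053564, plus strand: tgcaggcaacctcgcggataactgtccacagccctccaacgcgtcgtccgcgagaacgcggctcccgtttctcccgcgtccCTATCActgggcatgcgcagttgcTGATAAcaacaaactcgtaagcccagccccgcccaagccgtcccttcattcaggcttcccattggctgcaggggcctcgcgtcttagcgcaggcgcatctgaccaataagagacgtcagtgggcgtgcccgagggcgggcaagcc
Mgst1, chr6:138140277-138140526, plus strand: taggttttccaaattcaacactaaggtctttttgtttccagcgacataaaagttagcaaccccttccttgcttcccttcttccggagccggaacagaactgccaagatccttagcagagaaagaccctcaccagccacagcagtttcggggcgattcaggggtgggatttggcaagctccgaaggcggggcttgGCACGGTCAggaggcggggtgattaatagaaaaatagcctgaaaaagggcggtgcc
Txn1, chr4:57956412-57956661, minus strand: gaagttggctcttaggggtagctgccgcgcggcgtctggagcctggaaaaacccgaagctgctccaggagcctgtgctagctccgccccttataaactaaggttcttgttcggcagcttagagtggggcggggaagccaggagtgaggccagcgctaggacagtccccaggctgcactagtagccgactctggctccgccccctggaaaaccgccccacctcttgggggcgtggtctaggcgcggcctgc
The printed Mgst1 window holds 1 antioxidant response element core, on the reverse strand 56 bases before the start, and 10.2% of the 32851 RefSeq windows of this length hold one. The printed Gpx4 window holds 2 GATA matches, 169 and 145 bases before the start, the most of its 4 windows, of which the others hold 0, 1 and 1. It overlaps another Gpx4 window, whose match, 239 bases before that window's start site, is the same TGATAA. The Mgst1 window not printed holds 2 GATA matches, 105 and 16 bases before its start, and no antioxidant response element core. Of all windows, 26.5% hold at least 1 GATA match. The printed Gpx1 and Txn1 windows hold neither set of letters. A match describes these letters only, and binding at these places was not measured.

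The values are log2 ratios of blood sample over marrow reference, so a value below 0 means a lower share of the signal in blood than in marrow, and only differences between groups of blood samples were tested. Every change below is a log2 difference with its standard error (SE) from limma's moderated test over all 15 samples, with p-values adjusted by Benjamini-Hochberg over the 6515 features, and a call is an adjusted p under 0.05. The comparisons with untreated blood share the 4 untreated samples. In whole leukocyte RNA, fewer cells of a type and less RNA per cell cannot be told apart, here or in any result below. Columns held a value for 39.5% to 69.9% of their probes, and technical replicates, 2 for each sample, correlated with r between 0.829 and 0.957. Against marrow, untreated blood was high in the platelet list (6 tested genes, sample medians 1.92 to 2.43) and the T cell list (4 genes, 0.32 to 1.95). It was low in the neutrophil precursor granule list (2 genes, -2.76 to -1.57) and in the mature neutrophil list (8 genes, -1.84 to -1.27). Within the mature neutrophil list, Csf3r (0.22 to 0.74) and Trem1 (1.59 to 2.43) lay above 0 in untreated blood, and the other tested genes below 0. Cd3e and Cd79a, which define T and B cells, had too few values to be tested.

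Of the 4 genes, 3 changed at day 1 and 3 at day 2 against untreated blood, and 1 at day 5. At day 1, Gpx4 rose while Gpx1 and Mgst1 fell, against 4.6% of all features called in that comparison (2.29% higher, 2.32% lower). At day 2, Txn1 rose while Gpx1 and Mgst1 were lower, against 12.7% of all features called (4.83% higher, 7.84% lower). At day 5, Gpx4 alone passed, higher than in untreated blood, against 1.09% of features called (0.261% higher). Txn1 also rose between day 1 and day 2, where 1.15% of features were called (0.537% higher, 0.614% lower). Between day 2 and day 5, Gpx1 and Gpx4 rose and Txn1 fell, against 25.5% of features called (12.8% higher, 12.7% lower). In all, 11 of 20 tests of the 4 genes passed, and these tests share groups of samples. The 4 genes were chosen with earlier results of these data known. Their counts beside the shares over all features are therefore a description and no test of the 4 as a set.

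**Figure D1:**
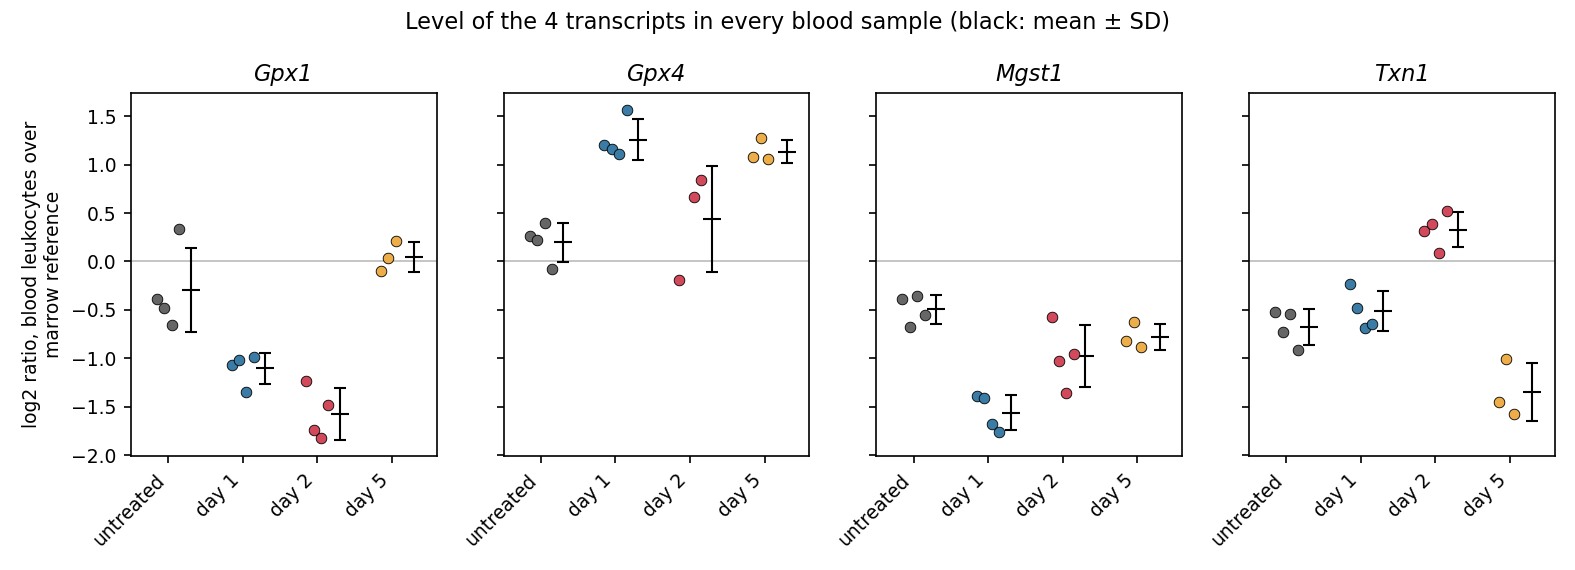
Log2 ratio of blood over marrow reference (vertical axis) for each sample, in a panel per gene, with groups in order of time from untreated to day 5; points are samples (technical replicates averaged) and bars are group means with the SD. Gpx1 is lowest at day 2, Gpx4 stands high at days 1 and 5, Mgst1 is lowest at day 1, and Txn1 is highest at day 2 and lowest at day 5.

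Gpx1, the peroxidase for hydrogen peroxide, had log2 ratios of -0.39, -0.48, -0.66 and 0.33 in the untreated samples, -1.07, -1.02, -1.34 and -0.98 at day 1, -1.24, -1.74, -1.83 and -1.48 at day 2, and -0.10, 0.04 and 0.21 at day 5. Every day 1 and day 2 sample lay below every untreated sample, while the day 5 samples lay within the untreated range, which untreated replicate 4 sets at its upper end. Gpx1 fell by 0.81 at day 1 (SE 0.19, adjusted p = 0.0292), to a mean of -1.10 ± 0.16 (SD, n = 4) against -0.30 ± 0.43 in untreated blood (SD, n = 4). It fell by 1.27 at day 2 (SE 0.19, adjusted p = 3.15e-04), to -1.57 ± 0.27 (SD, n = 4), which is a 2.42-fold lower ratio than in untreated blood. The day 2 samples overlapped the day 1 samples, and the difference of -0.47 between them did not pass (adjusted p = 0.334). At day 5 the mean was 0.049 ± 0.16 (SD, n = 3), and Gpx1 rose by 1.62 against day 2 (SE 0.20, adjusted p = 3.90e-05), a 3.08-fold change. Against untreated blood the day 5 difference was 0.35 (SE 0.20, adjusted p = 0.393), with a 95% interval from -0.084 to 0.78, and it was 0.56 without untreated replicate 4 and 0.23 without untreated replicate 3. The order of the means was therefore day 2, day 1, untreated and day 5, and neither day 2 and day 1 nor untreated and day 5 differed beyond the test's threshold.

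The Gpx1 fall at day 1 was the less firm of its calls. Without untreated replicate 4 it was -0.60 (adjusted p = 0.0696), and without day 1 replicate 1, 2 or 4 it was -0.82, -0.83 or -0.85 (adjusted p = 0.0855, 0.0724 and 0.0582). The day 2 fall and the rise by day 5 passed in all 26 alternatives run.

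One erythroid transcript, Alas2, was close to Gpx1 across samples, while most of its list was not called. Alas2, the enzyme that begins heme synthesis in red cell precursors, had log2 ratios of -0.47, -0.30, 0.39 and 0.77 in untreated blood, -1.73, -1.60, -0.73 and -1.15 at day 1, -1.33, -3.24, -3.05 and -3.30 at day 2, and 0.64, 0.49 and 1.39 at day 5. Alas2 fell by 2.83 at day 2 (SE 0.40, adjusted p = 2.43e-04), while its day 1 difference of -1.40 did not pass (adjusted p = 0.0578). Day 2 replicate 1 had both the highest Gpx1 and the highest Alas2 of its group. Gpx1 and Alas2 correlated with r = 0.92 over 15 samples, and with 0.47 once each group's mean was removed. Of the erythroid list, 11 genes were tested of 16 on the array, and 2 of the 11 were called at day 2, both lower (18.2%, against 12.7% of all features): Alas2 and Bnip3l, a protein of mitochondrial clearance in maturing red cells that fell by 0.60 (SE 0.13, adjusted p = 0.00509). Of the 11, 4 had a positive difference at day 2, among them Rhag, a red cell membrane protein named after its values were seen, with a mean of -0.25 at day 2 against -0.61 in untreated blood (difference 0.36, SE 0.16, adjusted p = 0.174). The list's median over its genes ranged from -0.78 to -0.46 in day 1 samples and from -0.89 to -0.51 in day 2 samples. Both ranges overlapped that of untreated samples, -1.38 to -0.14. The day 5 range, -0.49 to -0.28, lay within the untreated range and above every day 2 sample. Between day 2 and day 5, 3 of the 11 genes were called (27.3%, against 25.5% of all features), 2 higher and 1 lower. A positive difference was seen there for 9 of the 11, and for 2800 of the 6515 features. Of the red cell genes of that list, Slc4a1, Epb42 and Hemgn had no values. The part of red cell precursors in the Gpx1 result was not tested.

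Gpx4, the peroxidase for membrane lipid peroxides, had log2 ratios of 0.26, 0.22, 0.40 and -0.08 in the untreated samples, 1.21, 1.16, 1.11 and 1.56 at day 1, -0.19, 0.66 and 0.84 at day 2, and 1.07, 1.27 and 1.06 at day 5. Day 2 replicate 2 had no value, so the fit used 14 samples for this gene. All day 1 and day 5 samples lay above all untreated and all day 2 samples, and the day 2 samples spread from below the untreated range to above it. Gpx4 rose by 1.06 at day 1 (SE 0.19, adjusted p = 0.0117), to 1.26 ± 0.21 (SD, n = 4) against 0.20 ± 0.20 in untreated blood (SD, n = 4), a 2.09-fold higher ratio. At day 2 the mean was 0.44 ± 0.55 (SD, n = 3), with a difference of 0.24 from untreated blood (SE 0.21, adjusted p = 0.496, 95% interval from -0.20 to 0.68). At day 5 it rose by 0.94 (SE 0.21, adjusted p = 0.0450), to 1.13 ± 0.12 (SD, n = 3), a 1.91-fold higher ratio than in untreated blood. Gpx4 also rose by 0.70 at day 5 against day 2 (SE 0.22, adjusted p = 0.0329), whereas the difference of -0.82 at day 2 against day 1 did not pass (adjusted p = 0.0777).

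Of these Gpx4 results, the day 1 rise passed in all 25 alternatives in which Gpx4 could be fitted. Day 2 replicate 1, at -0.19, held the lowest value of the gene. Leaving out that sample left only the day 2 values 0.66 and 0.84, fewer than the 3 otherwise needed for a test. Gpx4 then passed at day 2 against untreated blood (0.55, adjusted p = 0.0422). The difference of day 5 from day 2 was then 0.38 and did not pass (adjusted p = 0.128). The day 2 difference from day 1, which did not pass without any single sample, was then -0.51 (adjusted p = 0.225). The day 5 against day 2 call was also lost without day 5 replicate 1 (0.73, adjusted p = 0.0664) or replicate 2 (0.63, adjusted p = 0.0984). The day 5 rise against untreated blood was lost without untreated replicate 1, 2, 3 or 4 (0.96, 0.94, 1.00 and 0.84), day 1 replicate 1, 2 or 3 or day 2 replicate 3 (0.94 each), or day 5 replicate 1 or 2 (0.97 and 0.87), with adjusted p between 0.0524 and 0.134.

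Several platelet transcripts were also higher at day 1. The median over the 6 tested genes of the platelet and megakaryocyte list ranged from 3.46 to 3.76 in day 1 samples, against 1.92 to 2.43 in untreated samples, and from 2.16 to 3.38 at day 5. Of these 6 genes, 4 rose at day 1, where 2.29% of all features were called higher. At day 2, where 4.83% of features were called higher, 0 of the 6 passed limma's test (sample medians 2.15 to 3.40), and 3 had an unadjusted p under 0.05. At day 5, where 0.261% of features were called higher, 1 of the 6 rose, the thrombin receptor gene F2rl2. Treml1, a receptor stored in platelet granules, rose by 1.96 at day 1 (SE 0.39, adjusted p = 0.0159), and Clu, which encodes the secreted chaperone clusterin, by 1.70 (SE 0.38, adjusted p = 0.0223). The part of platelet RNA in the Gpx4 result was not tested.

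Mgst1, the membrane-bound glutathione transferase, had log2 ratios of -0.39, -0.67, -0.35 and -0.56 in the untreated samples, -1.39, -1.41, -1.68 and -1.76 at day 1, -0.57, -1.03, -1.36 and -0.95 at day 2, and -0.82, -0.62 and -0.88 at day 5. All day 1 samples lay below every sample of the other groups, while day 2 replicate 1 and day 5 replicate 2 lay within the untreated range. Mgst1 fell by 1.07 at day 1 (SE 0.15, adjusted p = 0.00507), to -1.56 ± 0.18 (SD, n = 4) against -0.49 ± 0.15 in untreated blood (SD, n = 4), and ranked at position 4 of the 6515 features by p in that comparison. This 2.10-fold lower ratio passed in all 26 alternatives run. At day 2 the mean was -0.98 ± 0.32 (SD, n = 4), lower than in untreated blood by 0.48 on the log2 scale (a difference of -0.48, SE 0.15, adjusted p = 0.0471), close to the threshold. At day 5 the mean was -0.78 ± 0.14 (SD, n = 3), a difference of -0.28 that did not pass (adjusted p = 0.386, 95% interval from -0.63 to 0.063). Mgst1 at day 2 lay 0.58 above day 1 without passing (adjusted p = 0.0800), and at day 5 0.20 above day 2 (adjusted p = 0.405).

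The day 2 call of Mgst1 was lost when 1 of 11 samples was left out. Its difference was -0.45, -0.44 and -0.50 without untreated replicates 1, 3 and 4, -0.47, -0.36 and -0.49 without day 2 replicates 2, 3 and 4, and -0.48 without any of the 4 day 1 samples or day 5 replicate 1, with adjusted p between 0.0542 and 0.138. Without day 2 replicate 3, Mgst1 passed as higher at day 2 than at day 1 (0.71, adjusted p = 0.0311).

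**Figure D2:**
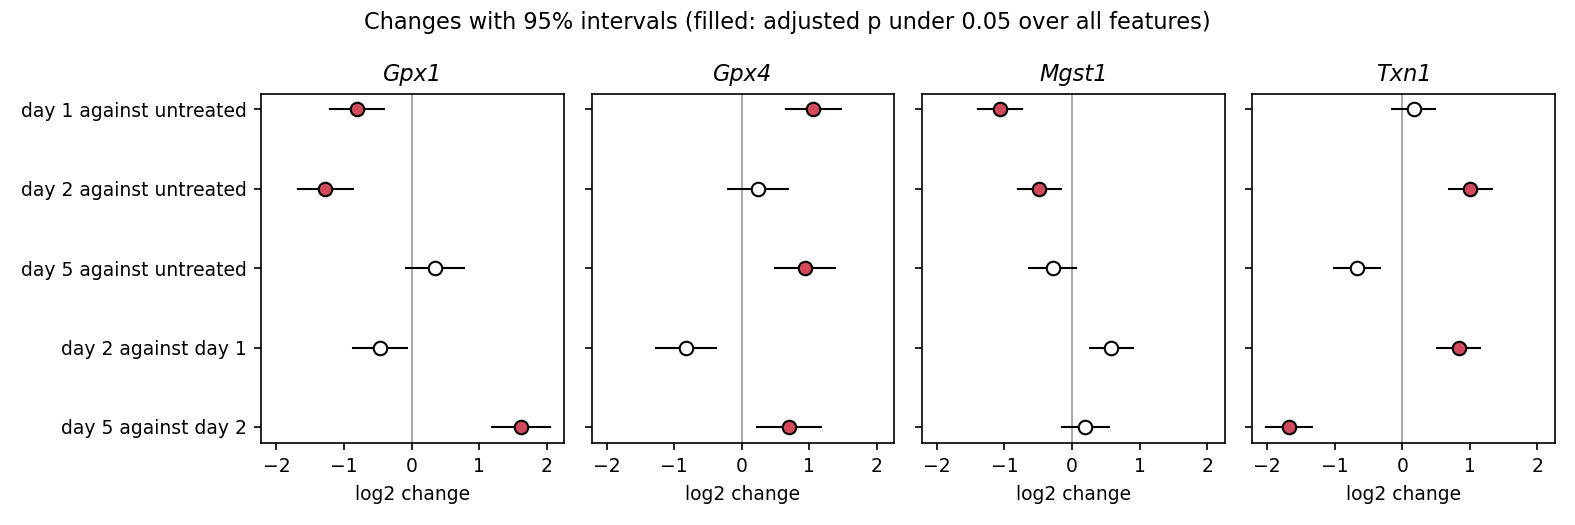
Log2 change of each gene in each of the 5 comparisons (first-named group minus second), with the 95% interval; filled points passed at an adjusted p under 0.05. Gpx1 and Txn1 take opposite signs at day 2 against untreated blood (-1.27 and 1.00) and at day 5 against day 2 (1.62 and -1.67).

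Txn1, cytosolic thioredoxin, had log2 ratios of -0.52, -0.72, -0.54 and -0.91 in the untreated samples, -0.23, -0.48, -0.68 and -0.64 at day 1, 0.32, 0.38, 0.09 and 0.53 at day 2, and -1.45, -1.00 and -1.58 at day 5. The day 2 samples all lay above 0 and above every other sample, and the day 5 samples lay below every other sample. Day 1 and untreated samples overlapped, with a difference of 0.17 (SE 0.15, adjusted p = 0.563, 95% interval from -0.15 to 0.49). Txn1 rose by 1.00 at day 2 against untreated blood (SE 0.15, adjusted p = 3.38e-04), to 0.33 ± 0.18 against -0.68 ± 0.18 (SD, n = 4 each), a 2.01-fold higher ratio. It rose by 0.84 at day 2 against day 1 (SE 0.15, adjusted p = 0.0260), where the day 1 mean was -0.51 ± 0.21 (SD, n = 4). At day 5 it fell by 1.67 against day 2 (SE 0.16, adjusted p = 6.41e-06), a 3.19-fold lower ratio, to -1.34 ± 0.30 (SD, n = 3). Against untreated blood the day 5 difference of -0.67 (SE 0.16) missed the threshold (adjusted p = 0.0596), although the groups did not overlap.

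The day 2 rise of Txn1 against untreated blood and its fall from day 2 to day 5 passed in all 26 alternatives run. The rise from day 1 to day 2 was lost without day 1 replicate 3 or 4 (0.78 and 0.79, adjusted p = 0.0881 and 0.101) or day 2 replicate 2 or 4 (0.82 and 0.77, adjusted p = 0.0833 and 0.0542). Without day 5 replicate 2, Txn1 passed as lower at day 5 than in untreated blood (-0.84, adjusted p = 0.0156).

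Most tested mature neutrophil transcripts, but not all, were higher at day 2 as well. The median over the 8 tested genes of that list ranged from -0.88 to -0.26 in day 2 samples and from -2.16 to -1.67 in day 5 samples, against -1.84 to -1.27 in untreated samples. Of the 8 genes, 5 rose at day 2 (62.5%, against 12.7% of all features called and 4.83% called higher), among them S100a9, a subunit of the neutrophil protein calprotectin (1.71, SE 0.37, adjusted p = 0.00638), and Csf3r, the receptor for granulocyte colony-stimulating factor (1.56, SE 0.21, adjusted p = 1.74e-04). The other three of the 8 had lower means at day 2 than in untreated blood without passing: Cd177, a neutrophil surface protein (a difference of -0.62, adjusted p = 0.0793), and the granule protein genes Ltf (-0.22, adjusted p = 0.581) and Ngp (-0.38, adjusted p = 0.475). At day 5, 0 of the 8 passed against untreated blood in limma's test, and 3 had an unadjusted p under 0.05. The monocyte list moved the other way at day 2, with 6 of its 7 tested genes called lower (7.84% of all features were) and sample medians from -0.29 to -0.13, against 0.48 to 1.19 in untreated blood; Ms4a6c, a tetraspan protein of the monocyte surface, fell by 1.73 (SE 0.18, adjusted p = 4.07e-05). Of the lymphocyte lists at day 2, 2 of 6 B cell genes and 4 of 8 natural killer and cytotoxic cell genes were called lower and none of either higher, against 7.84% of all features called lower. Of 4 tested T cell genes, 1 was called, Cd4, the helper T cell coreceptor, which was higher at day 2 (0.53, SE 0.16, adjusted p = 0.0421). Cd4 was also the only gene of the 4 with a positive difference, and the median change of the T cell list was -0.35. At day 1, 3 of the 7 monocyte genes were already called lower, where 2.32% of all features were, with sample medians from 0.22 to 0.53. On that day 1 of 6 B cell genes was called lower and 0 of 4 T cell genes were called. Of the 8 natural killer and cytotoxic cell genes, 1 was called higher at day 1, where 2.29% of all features were. The part of these shifts in the results of Txn1 and Mgst1 was not tested.

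Differences between genes within a sample put the peroxidases, and the other pair of genes, side by side. Gpx4 minus Gpx1 averaged 0.50 ± 0.63 in untreated blood (SD, n = 4), 2.36 ± 0.17 at day 1 (SD, n = 4), 1.95 ± 0.79 at day 2 (SD, n = 3) and 1.08 ± 0.21 at day 5 (SD, n = 3). Txn1 minus Mgst1 averaged -0.18 ± 0.13 in untreated blood, 1.05 ± 0.10 at day 1, 1.31 ± 0.28 at day 2 (SD, n = 4 each) and -0.57 ± 0.16 at day 5 (SD, n = 3). These are differences of log2 ratios to marrow and carry no test, and they do not compare the amounts of the transcripts. Across samples, Gpx1 and Txn1 had r = -0.84 (n = 15) and Gpx4 and Mgst1 r = -0.70 (n = 14), which became -0.18 and -0.47 within groups. Mgst1 and Txn1 had r = -0.12 over all 15 samples and 0.64 within groups. All samples share the marrow reference.

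Technical replicates of a sample differed less than samples of a group did. The median absolute difference between the technical replicates was 0.050 for Gpx1, 0.089 for Gpx4, 0.049 for Mgst1 and 0.049 for Txn1, against pooled SDs between samples within groups of 0.28, 0.32, 0.21 and 0.22. The largest technical differences were 0.53 for Gpx1 and 0.59 for Gpx4, and 0.13 for both Mgst1 and Txn1. At day 5, Gpx4 differed by 0.51 and 0.59 between the technical replicates of replicates 1 and 2. These exceed the SD of 0.12 between the day 5 samples. The 0.53 for Gpx1, in untreated replicate 3, exceeds the SD of 0.43 between untreated samples.

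The genes whose values across samples were most like each of the 4 were sought by Pearson's r among 3561 symbols with a value in all 15 samples (3562 and 14 samples for Gpx4), and are given as a description. For Gpx1 they were Hamp, the iron hormone hepcidin (r = 0.92), Slc7a7, an amino acid transporter (0.92), Alas2 (0.92), Nf2, the tumour suppressor merlin (0.91), and Ccdc91 (0.91), with r between 0.29 and 0.47 within groups. Hamp averaged 0.31 in untreated blood, -0.037 at day 1, -0.21 at day 2 and 0.55 at day 5, a smaller span than that of Alas2. For Gpx4 they were Dut, the enzyme that keeps uracil out of DNA (0.91), H1f2, a linker histone (0.90), Clcn3, a chloride and proton exchanger (0.90), Jph2, a junctional membrane protein known from heart muscle (0.89), and Coil, the marker protein of Cajal bodies (0.89). Dut averaged -1.66 in untreated blood, -0.53 at day 1, -1.12 at day 2 and -0.46 at day 5, again with days 1 and 5 high.

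For Mgst1, the nearest was Cd177 (r = 0.93, and 0.82 within groups), followed by Cdh11, a cadherin (0.83), Pgam1, a glycolytic enzyme (0.81), Ethe1, a mitochondrial sulfur dioxygenase (0.79), and Adssl1, an adenylosuccinate synthase known from muscle (0.79). Cd177 had -3.54, -3.46, -3.90 and -3.85 at day 1, against -2.63, -2.56, -2.22 and -2.35 in untreated blood, and fell by 1.25 (SE 0.22, adjusted p = 0.00946). It was the single gene of the 8 tested mature neutrophil genes called at day 1. Most of that list went the other way, with a positive difference for 6 of the 8 and a median change of 0.15. For Txn1 they were Slc40a1, the iron exporter ferroportin (0.96), Klra17, a lectin-like receptor (0.96), Stard7, a phosphatidylcholine carrier (0.96), Csf3r (0.95) and Jdp2, a repressor of AP-1 factors (0.95), with r between 0.54 and 0.77 within groups. Slc40a1 averaged -1.64 in untreated blood, -1.18 at day 1, 0.43 at day 2 and -3.36 at day 5, a wider span in the same order of groups as Txn1.

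**Figure D3:**
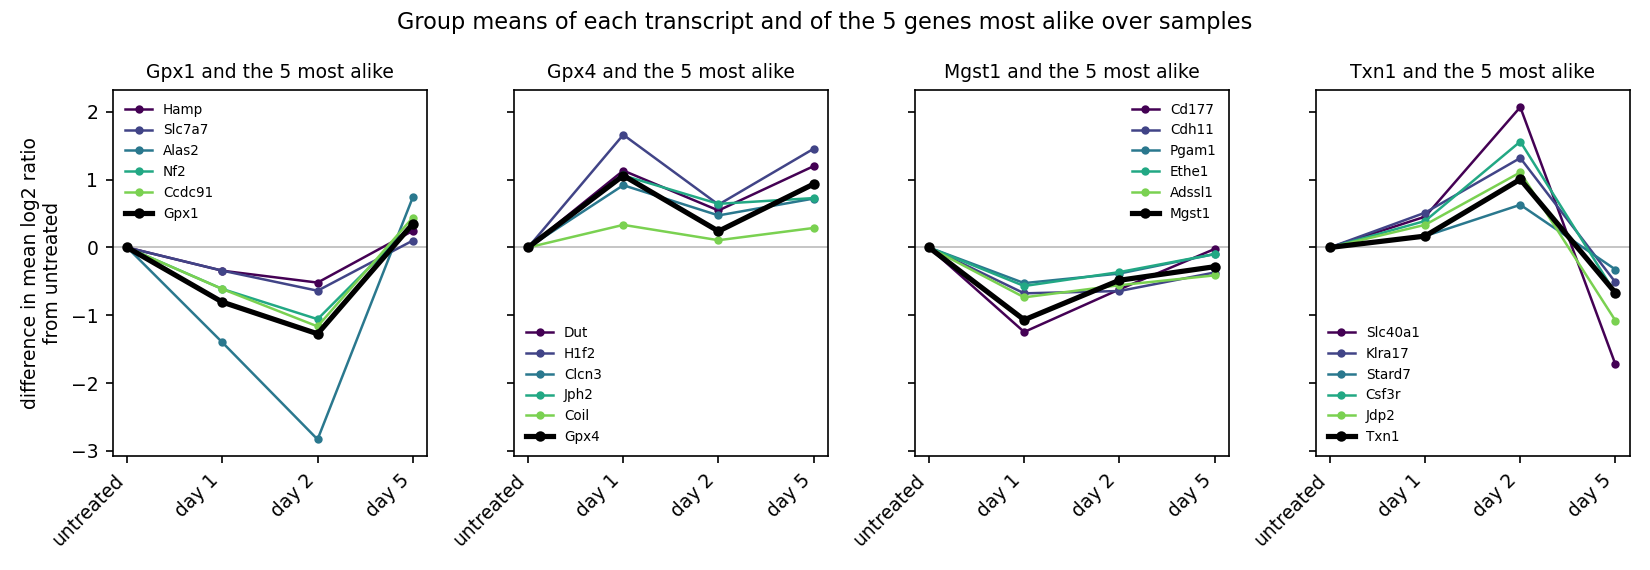
Difference of the group mean log2 ratio from the untreated mean (vertical axis) over untreated, day 1, day 2 and day 5 for each of the 4 genes and the 5 symbols most like it by Pearson's r, in a panel per gene. The companions of Gpx1 dip at day 2, those of Gpx4 stand high at days 1 and 5, and those of Txn1 peak at day 2 and are lowest at day 5.

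Most other genes of glutathione and thioredoxin metabolism did not pass. Of 104 other genes of 10 redox lists on the array, 52 had enough values to be tested. At day 1, 1 of the 52 was called (1.92%, against 4.6% of all features), at day 2 there were 6, 3 higher and 3 lower (11.5%, against 12.7%), and at day 5 there was 1 (1.92%, against 1.09%). Their median change was 0.041, 0.0075 and 0.037 on those days, against 0.032, 0.059 and 0.0044 over all features. The day 1 count was 0 without untreated replicate 3 or 4 or day 1 replicate 1, 2 or 4, and 2 without day 2 replicate 1, 2 or 3 or day 5 replicate 3. The day 2 count was 3 without untreated replicate 3 or day 2 replicate 2, and the day 5 count was 2 without day 5 replicate 3.

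Among the other peroxidases, Gpx2, known from gut epithelium, and Gpx3, the plasma form, were tested, and neither passed against untreated blood in limma's test, with an unadjusted p under 0.05 for 1 of them at day 2, Gpx2, and for 1 at day 5, Gpx3. Gpx3 had -0.16, -0.51, -0.33 and -0.63 at day 2 and 0.55, 0.34 and -0.06 at day 5, and rose by 0.69 at day 5 against day 2 (SE 0.16, adjusted p = 0.00538), as Gpx1 and Gpx4 did, while Gpx2 fell by 0.58 (SE 0.19, adjusted p = 0.0404). Gpx5, Gpx7 and Gpx8 had too few values. In the Mgst1 list, Mgst3, a related microsomal enzyme, had day 1 values from -3.93 to -3.17, against -3.70 to -2.00 in untreated blood, a difference of -0.66 that did not pass (SE 0.42, adjusted p = 0.392). Alox5ap and Ltc4s, membrane proteins of leukotriene synthesis from the same family, differed by -0.31 and 0.28 at day 1 (adjusted p = 0.752 and 0.536).

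Among soluble glutathione transferases, 9 were tested and Gstt3, a theta class enzyme, was the single gene called. It had -0.89, -0.98, 0.12 and -0.33 at day 1 and -1.17, -1.15, -1.73 and -1.33 at day 2, against 0.32, 0.54, 0.67 and 0.78 in untreated blood. Gstt3 fell by 1.10 at day 1 (SE 0.24, adjusted p = 0.0217) and fell by 1.93 at day 2 (SE 0.24, adjusted p = 9.97e-05). It rose by 2.40 from day 2 to day 5 (SE 0.26, adjusted p = 1.15e-05). In limma's test, 3 of the 9 had an unadjusted p under 0.05 at day 1 (Gstt3, Gsto1 and Gsto2). There were 2 at day 2 (Gstt3 and Gsto2) and 0 at day 5. Gsto1, though not called, had 1.46, 2.28, 1.51 and 1.41 at day 1, against 0.44, -0.04, 0.71 and 0.41 in untreated blood. Of 8 tested genes of glutathione synthesis and recycling, 0 passed limma's test against untreated blood, and 1, 2 and 0 had an unadjusted p under 0.05 at days 1, 2 and 5. Gclc and Gsr, for the rate-limiting synthesis enzyme and for glutathione reductase, had too few values.

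In the thioredoxin list, 0 of the 5 other tested genes passed in any of the 5 comparisons by limma, and 1 had an unadjusted p under 0.05, Txnip at day 5 against day 2. Txnrd1, the reductase that recharges thioredoxin, had -0.15, -0.34, -0.12 and -0.52 at day 2, against -0.40, -0.19, -1.09 and -0.28 in untreated blood, a difference of 0.21 (SE 0.17, adjusted p = 0.470). Txnip, an inhibitor that binds thioredoxin, differed by 0.20 at day 2 (SE 0.26, adjusted p = 0.673) and by -0.66 at day 5 against day 2 (SE 0.28, adjusted p = 0.101). Of the 7 tested peroxiredoxins and glutaredoxins, Prdx1, which thioredoxin reduces, fell by 0.45 at day 2 (SE 0.11, adjusted p = 0.0166), and Glrx, a glutathione-dependent disulfide reductase, rose by 0.55 (SE 0.17, adjusted p = 0.0406). Glrx had 0.82, 0.42, 0.07 and 0.59 at day 2, against -0.14, -0.07, -0.09 and -0.01 in untreated blood. Nfe2l2, the factor that drives the antioxidant response, differed by -0.09 at both day 2 and day 5 (adjusted p = 0.796 and 0.835), and its target Nqo1 by -0.01 and -0.03 (adjusted p = 0.978 and 0.963).

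The remaining genes of these lists called against untreated blood were Msra, which repairs oxidised methionine and rose by 0.52 at day 2 (SE 0.15, adjusted p = 0.0337), Ncoa4, the receptor for ferritin breakdown, which fell by 1.12 at day 2 (SE 0.35, adjusted p = 0.0480), and Slc40a1. Slc40a1 rose by 2.07 at day 2 (SE 0.21, adjusted p = 3.77e-05) and fell by 1.73 at day 5 (SE 0.22, adjusted p = 8.94e-04), both against untreated blood. Between day 2 and day 5, 12 of the 52 genes were called, 6 higher and 6 lower at day 5 (23.1%, against 25.5% of all features).

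**Figure D4:**
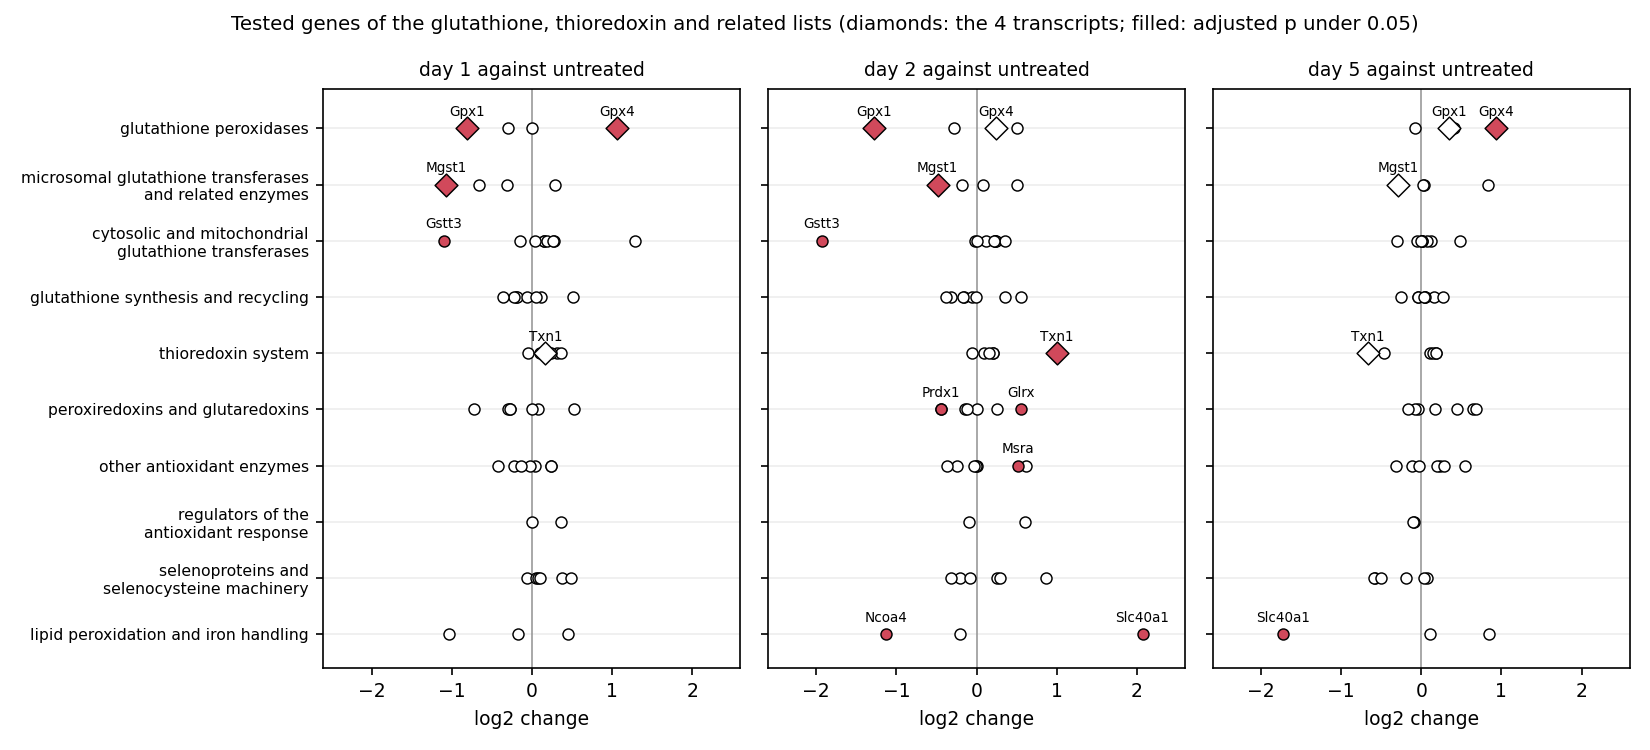
Log2 change of each tested gene of the redox lists (points, a row per list) for day 1, day 2 and day 5 against untreated blood, with called genes filled and the 4 followed genes marked. Most genes lie around 0 in each panel, and the called genes outside the 4 are Gstt3, Prdx1, Glrx, Msra, Ncoa4 and Slc40a1.

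**Figure D5:**
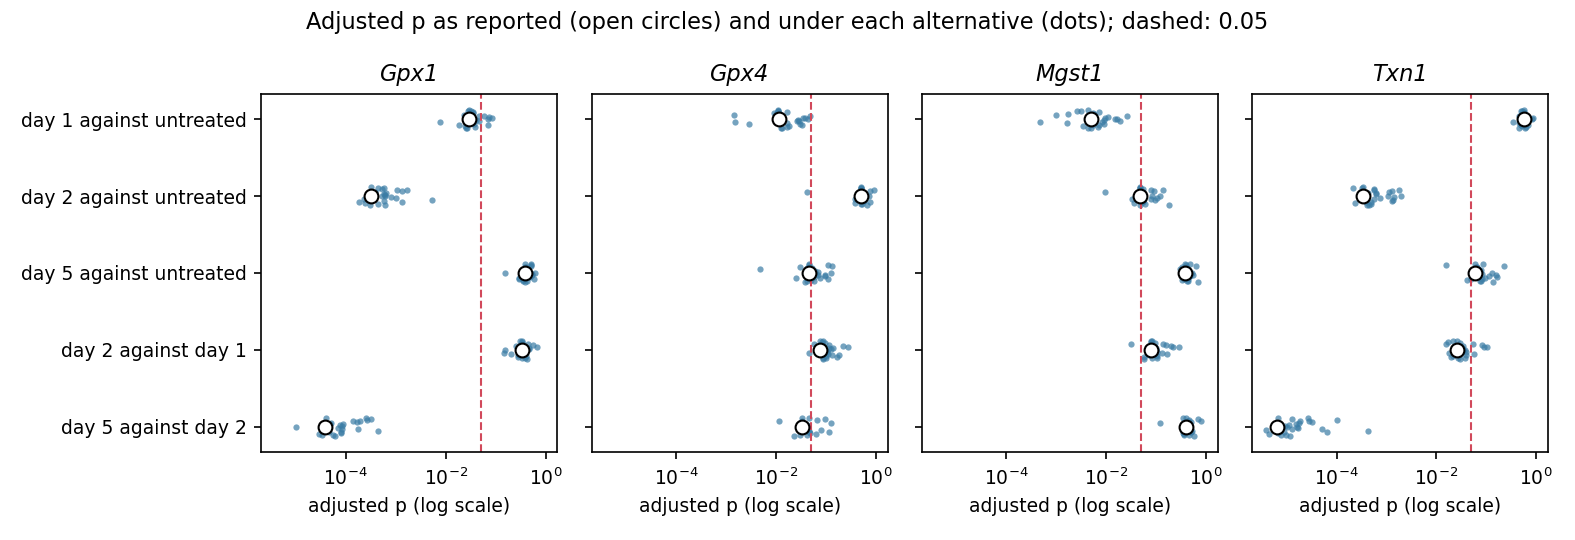
Adjusted p (log axis) of each gene in each comparison under the reported setting and under the alternatives, with the 0.05 threshold as a line. The day 2 values of Gpx1 and Txn1 against untreated blood stay below the line in every alternative, while the day 2 values of Mgst1 and the day 5 values of Gpx4 straddle it.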

How the data were processed

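The deposited values are log2 ratios as the authors made them, per the labels' dyes Cy5 over Cy3 of amplified RNA; the base is assumed, and if it were e, every value would be a natural logarithm. No source used here states the scanner, background correction, normalization or filter. Column medians lay between -0.0028 and 0.025, so ratios show unequal change, not amounts. Of 13443 probes, 10032 had 1 symbol. Technical replicates were averaged, then probes of a symbol, over 30 columns and 15 samples. Features with at least 3 values in each group of 4 and 2 at day 5 were tested with limma 3.58.1 in R 4.3.3 (lmFit, eBayes, 1 mean per group), after a check on simulated data. The number of arrays limits precision. The 4 genes, the redox and cell type lists and the alternatives were chosen with earlier results of these data known. Named genes were the 4, called redox genes (the 3 largest per direction and list), the 5 most alike per gene, Alas2, and the 2 most changed called markers per list and day; other list genes were named as examples after values were seen. Samples of the same replicate number did not deviate together, so none were paired. Cross-hybridisation of the probes was not tested.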

Additional observations from a re-analysis of the deposited data

Results flagged for a closer look

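In groups of 4 samples, 163 combinations of a named gene and a group were searched for 1 sample far from the others, and 11 were found; chance gives about 1 in 20 such groups. None was of Gpx1, Gpx4, Mgst1 or Txn1. Gpx4 at day 2, with 3 values, and every gene at day 5 were not searched. Day 2 replicate 1 accounted for 4: Alas2 was -1.33 there, against -3.30 to -3.05 in the other day 2 samples, H1f2 was 2.28 (others 3.33 to 3.37), Clu was 2.82 (others 4.33 to 4.59) and Nkg7, a cytotoxic granule protein, was 0.012 (others 0.30 to 0.34). The same sample held the lowest Gpx4 value and the highest Gpx1 and Mgst1 values of its group. Day 2 replicate 4 stood apart for Slc7a7 (-0.41, others -0.32 to -0.31) and for Mpeg1, a macrophage pore protein (0.15, others -0.15 to -0.12). Day 2 replicate 3 stood apart for Adgre1, the macrophage surface protein F4/80 (-0.40, others -0.12 to -0.096), and for Cd72, a B cell receptor (-2.09, others -1.11 to -1.00). Clcn3 was -0.22 in untreated replicate 4 (others 0.15 to 0.20), and Klra17 was 0.34 in day 1 replicate 1 (others 0.0027 to 0.021). Txnrd1 was -0.48 in day 1 replicate 1 (others -0.10 to -0.027).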

How the results depend on the processing

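Of 515 values of the 4 genes under alternatives, 460 stayed on their side of the threshold, 49 lost a call, 6 gained one and 0 changed direction. Many alternatives could not change a direction, because they leave the difference as it is and alter only its adjusted p. Among these are another filter, another prior and leaving out a sample of a group not compared. Only the values below changed side, or moved a count by over 1.5 times; their causes were not tested, beyond the fewer samples or features of some settings. With quantile normalization, day 1 against untreated had 462 features and 2 redox genes called, day 5 had 111 and 2, and Mgst1 at day 2 was -0.32. Features with values in all 15 samples gave 2 redox genes at day 1, 116 features at day 5 and Txn1 called at day 5 (-0.67). Technical replicate 1 alone lost Gpx1 at day 1 (-0.69), Mgst1 at day 2 (-0.49) and Gpx4 at day 5 against day 2 (0.63), called Txn1 at day 5 (-0.70) and gave 44 features for day 2 against day 1; replicate 2 alone lost Mgst1 at day 2 (-0.48) and Gpx4 at day 5 (0.92). Without the filter, Mgst1 at day 2 (-0.48) and Gpx4 at day 5 (0.94) were lost and 37 features were called for day 2 against day 1. The 21 same-number pairs of samples had deviations correlated with r from -0.35 to 0.22 (median -0.040), so the numbers do not pair samples; with the replicate block, day 1 had 131 features and 0 redox genes called, day 2 against day 1 had 31 features, and Mgst1 at day 2 (-0.48) and Gpx4 at day 5 (0.98) were lost. With only the 2 groups compared in the fit, counts were 578 features and 4 redox genes at day 1, 34 at day 5, 5 for day 2 against day 1 and 935 for day 5 against day 2, and the calls of Mgst1 at day 2 (-0.48), Txn1 for day 2 against day 1 (0.84) and Gpx4 for day 5 against day 2 (0.70) were lost. A robust trended prior gave 2 redox genes at day 1 and lost Mgst1 at day 2 (-0.48) and Gpx4 at day 5 (0.94). Array weights gave 903 features and 6 redox genes at day 1 and 116 features for day 2 against day 1, called Gpx4 at day 2 against day 1 (-0.80), and lost Gpx4 at day 5 against untreated (0.92) and against day 2 (0.64). Leaving out 1 sample at a time gave 60 to 438 features at day 1, 529 to 942 at day 2, 27 to 244 at day 5, 3 to 94 for day 2 against day 1 and 1195 to 1863 for day 5 against day 2. Counts outside 1.5 times the reported ones came without untreated replicates 1, 2, 3 and 4 (195, 164, 80 and 72) and day 1 replicates 1, 2 and 4 (62, 60 and 62) at day 1, without untreated replicate 4 (529) at day 2, without untreated replicates 3 and 4 (42 and 40) and day 5 replicates 1, 2 and 3 (27, 107 and 244) at day 5, and, for day 2 against day 1, without untreated replicates 1 and 3 (41 and 31), day 1 replicates 1, 3 and 4 (37, 6 and 3) and day 2 replicates 2 and 4 (7 and 28). The redox counts ranged over 0 to 2 at day 1, 3 to 8 at day 2 and 1 to 2 at day 5. In the same way the differences ranged from -0.93 to -0.60 for Gpx1 at day 1 against untreated, from -0.62 to -0.36 for Mgst1 at day 2 against untreated, from 0.038 to 0.55 for Gpx4 at day 2 against untreated, from 0.84 to 1.00 for Gpx4 at day 5 against untreated, from -0.84 to -0.55 for Txn1 at day 5 against untreated, from 0.77 to 0.93 for Txn1 at day 2 against day 1, from 0.45 to 0.71 for Mgst1 at day 2 against day 1, from 0.38 to 0.90 for Gpx4 at day 5 against day 2, from -1.02 to -0.51 for Gpx4 at day 2 against day 1 and from 0.23 to 0.56 for Gpx1 at day 5 against untreated.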
